A study of Homo sapiens with 13 samples.

Results

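FOXO1 and FOXO3 are forkhead transcription factors, and KLF9, CCNG2, PDK4, KLHL24, PIK3R1, BCL6, TXNIP and IRS2 are genes widely listed as targets that FOXO factors switch on when PI3K signalling is low. These 10 genes were picked by symbol from the 38369 gene rows of each deposited table, and each symbol matched 1 row. They were picked with the results of both experiments known, so their levels and fold changes are given as a description, with no p-value. How many of them passed the threshold of the fit across all genes is stated beside the share of all genes that did, and supports nothing. The libraries were polyA-selected RNA-seq of MCF10A, an immortalised and non-tumorigenic human breast epithelial line, although the labels enter breast cancer as the cell type. Its derivative MCF10A-Src carries a Src kinase that tamoxifen activates. It was sequenced before tamoxifen (0 h, 1 library) and after 4 h (2 libraries), 12 h (1 library) and 36 h (2 libraries) of the drug. Parental MCF10A gave 3 libraries from untransduced cells and 2 from cells carrying the transduced long intergenic RNA LINC00520, all harvested at 72 h. The protocol calls the parental controls untransduced, while the sample descriptions call them mock transduced. According to the growth protocol, cells of every group were kept with horse serum, hydrocortisone, cholera toxin, EGF and insulin. The controls thus received insulin and EGF, which activate PI3K, and a glucocorticoid as well. Whether the Src line is 1 clone, and which vector carried LINC00520, are not given in the sources used here.

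PI3K makes the membrane lipid signal that recruits and activates the kinase AKT, and AKT phosphorylates FOXO proteins. Phosphorylated FOXO is bound by 14-3-3 proteins and leaves the nucleus, so its target genes are less transcribed while growth factors act. When PI3K signalling drops, nuclear FOXO raises genes of cell cycle arrest, fuel choice and insulin signalling, among them parts of the PI3K pathway itself. RNA levels do not report the phosphorylation or location of FOXO proteins, which were not measured. Several of the 10 genes also have other regulators: KLF9 and PDK4 respond to glucocorticoids, BCL6 to STAT factors and TXNIP to the glucose sensor MondoA.

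The promoter sequences of TXNIP, CCNG2, BCL6, KLF9 and PDK4 are shown because these genes had the widest or the most unlike changes described below, and because a short search found a match in only some of them. All 10 genes matched the RefSeq promoter table (GRCh38), with 18 windows of 300 bases in all, each running from 250 bases before a transcript start to 50 after it. The FOXO-binding letters GTAAACAA were searched on both strands. They were found in 335 of 35116 windows (0.954%), and TXNIP was the 1 gene of the 10 that held them, 124 bases before its start. The shorter core GTAAACA, which lies within the first motif, was found in 1202 windows (3.42%) and again in TXNIP alone of the 10. The match is in capitals in the bases before the TXNIP start (chr1:145996580-145996829, minus strand).
TXNIP: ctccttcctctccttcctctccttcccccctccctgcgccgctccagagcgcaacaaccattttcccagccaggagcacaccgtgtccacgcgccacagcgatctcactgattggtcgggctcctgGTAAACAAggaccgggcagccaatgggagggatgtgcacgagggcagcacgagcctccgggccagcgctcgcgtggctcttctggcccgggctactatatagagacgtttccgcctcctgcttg
Both further motifs were chosen after the data were seen. CACGTG, an E-box of the kind MYC and MondoA partners bind, was in 2548 windows (7.26%), and among the 10 genes in CCNG2 alone, 30 bases before the start. It is in capitals in the bases before the CCNG2 start (chr4:77156957-77157206, plus strand).
CCNG2: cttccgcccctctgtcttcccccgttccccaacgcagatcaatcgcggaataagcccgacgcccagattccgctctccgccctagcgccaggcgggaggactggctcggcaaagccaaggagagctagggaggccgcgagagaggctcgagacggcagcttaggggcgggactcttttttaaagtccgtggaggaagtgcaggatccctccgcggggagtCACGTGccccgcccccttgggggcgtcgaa
TTCNNNGAA, the palindrome that STAT dimers bind, was in 2689 windows (7.66%) and in BCL6 alone of the 10. The BCL6 window held 4 matches, a number reached in 7 windows of the table (0.0199%). The stretch below spans the BCL6 start and holds 3 of them in capitals (chr3:187745439-187745518, minus strand).
BCL6: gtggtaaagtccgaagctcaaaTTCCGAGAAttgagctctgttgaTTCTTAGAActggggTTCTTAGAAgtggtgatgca
The bases before the starts of KLF9 (chr9:70414658-70414907, minus strand) and PDK4 (chr7:95596517-95596766, minus strand) held none of the 4 motifs and are printed with no capitals.
KLF9: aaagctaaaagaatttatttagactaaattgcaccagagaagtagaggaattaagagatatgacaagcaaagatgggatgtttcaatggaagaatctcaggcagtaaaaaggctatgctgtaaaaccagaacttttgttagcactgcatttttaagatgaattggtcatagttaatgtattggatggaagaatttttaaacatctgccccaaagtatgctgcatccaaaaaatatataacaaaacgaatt
PDK4: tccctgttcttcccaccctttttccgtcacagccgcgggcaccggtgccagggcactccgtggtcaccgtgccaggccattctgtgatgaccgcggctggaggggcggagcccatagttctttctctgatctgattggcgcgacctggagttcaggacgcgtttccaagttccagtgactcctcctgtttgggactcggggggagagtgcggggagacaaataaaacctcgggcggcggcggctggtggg
A match describes exact letters only. The search says nothing about inexact forms of a motif inside these windows, in TXNIP or any other gene, or about sites outside them.

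Library depth ran from 12.6 to 52.3 M fragments. Epithelial markers (KRT5, KRT14, KRT18, CDH1, EPCAM, TP63 and ITGB4) were present in every group, and their summed level was 7630 to 7910 CPM in untransduced and 7880 to 8150 CPM in LINC00520 libraries. In MCF10A-Src cells the sum was 6350 CPM at 0 h, 8230 to 8600 CPM at 4 h, 6780 CPM at 12 h and 4070 to 4440 CPM at 36 h. KRT5 made up most of the sum, and single markers moved against each other. With LINC00520, KRT14 rose from a mean of 299 to 814 CPM (log2 fold change 1.44, edgeR QL test, adjusted p = 8.91e-17), while EPCAM (-0.739, adjusted p = 2.39e-13), KRT18 (-0.362, adjusted p = 1.61e-10) and CDH1 (-0.217, adjusted p = 1.97e-05) fell. In the time course, KRT5 (-1.42, adjusted p = 6.64e-04), TP63 (-1.39, adjusted p = 7.08e-04), CDH1 (-1.15, adjusted p = 0.00142) and KRT14 (-0.577, adjusted p = 0.0182) fell from 4 h to 36 h. CPM here means counts scaled to a common library size after edgeR's TMM adjustment, a scale that compares a gene between libraries and not with another gene. The fibroblast sum covered 5 of 6 markers, since the other shares its row with a further gene symbol and was left out. It stood at 37.4 CPM at 0 h and 39.0 to 42.7 CPM at 4 h. At 12 h it was 61.5 CPM, and at 36 h 118 to 150 CPM, with DCN carrying most of it. COL1A2 was at 0 fragments in the whole time course. The summed immune and blood markers stood at 9.53, 10.0 to 11.3, 15.4 and 47.7 to 88.9 CPM at the same times, mostly CD68. In the parental cells both sums differed little between groups (26.9 to 27.2 against 28.0 to 28.4 CPM, and 17.7 to 19.8 against 19.3 to 20.5 CPM), and the endothelial sum was at most 0.141 CPM in any library. DCN (log2 fold change 1.75, edgeR QL test, adjusted p = 3.86e-04) and CD68 (2.69, adjusted p = 4.77e-04) rose from 4 h to 36 h, the interval in which most of the 10 genes were also higher. HBB, a blood marker, was called higher with LINC00520, on 3, 0 and 0 fragments against 13 and 15. The part of these markers in the results below was not tested. In bulk RNA, fewer cells of a type and less RNA per cell cannot be told apart. No tamoxifen-free sample matched the later times, so Src activation and time in culture cannot be told apart. The transduced controls of the series, carrying another lincRNA, could not be matched to rows of the table and were not analysed here, so the comparison with untransduced cells does not separate LINC00520 from transduction.

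Per transcript length, TXNIP was by far the most abundant of the 10 genes and FOXO1 the scarcest. In the untransduced parental libraries the levels in FPKM (fragments per unit of transcript length and of sequencing depth) were 257 ± 18.7 for TXNIP (SD, n = 3) and 26.7 ± 0.42 for PIK3R1. FOXO3 followed at 16.4 ± 0.23, BCL6 at 14 ± 0.456, PDK4 at 12.8 ± 0.472 and CCNG2 at 12.3 ± 0.48. IRS2 stood at 6.05 ± 0.11, KLF9 at 4.47 ± 0.544, KLHL24 at 4.24 ± 0.463 and FOXO1 at 1.27 ± 0.183. PDK4 and CCNG2 did not differ beyond their spread in that order, and neither did KLF9 and KLHL24. At 36 h of tamoxifen TXNIP still led with 611 ± 44.9 FPKM (SD, n = 2), followed by PIK3R1 at 92.0 ± 2.83 and CCNG2 at 79.0 ± 2.34, while FOXO1 was lowest at 0.557 ± 0.0241. CCNG2 was thus in place 6 of the parental controls and among the top 3 here, on a scale that each experiment's table set separately.

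The FOXO factors themselves are taken first. FOXO3 (chr6:108881025-109005971, hg19), the more abundant factor, stood at 134 CPM at 0 h, 77.0 and 71.8 CPM at 4 h, 92.9 CPM at 12 h, and 116 and 107 CPM at 36 h. It was thus lowest at 4 h, and both 36 h libraries lay between the 4 h and 0 h levels. The log2 fold change was -0.85 (SE 0.177) from 0 h to 4 h, 0.583 (SE 0.15) from 4 h to 36 h and -0.266 (SE 0.18) from 0 h to 36 h. The difference between 4 h and 36 h did not pass the threshold when either 36 h library was left out (0.529 and 0.634) or with library totals in place of TMM scaling (0.327). Library totals also gave -0.619 from 0 h to 36 h, past the threshold. FOXO1 (chr13:40921272-41240734, hg19), the factor best known for insulin control of metabolism, had few fragments. It stood at 4.34 CPM at 0 h, 2.13 and 2.63 CPM at 4 h, 2.09 CPM at 12 h, and 2.46 and 2.37 CPM at 36 h, from 248, 41 and 62, 59, and 51 and 25 fragments. All 5 later libraries lay under the 0 h library and within a narrow band. FOXO1 was under 1 FPKM in the whole time course and so stayed out of its main fit. With a filter on counts instead, its log2 fold change was -0.802 (SE 0.329) from 0 h to 4 h and 0.00143 (SE 0.31) from 4 h to 36 h. FOXO4, a further family member that was not among the 10, stood at 4.48 CPM at 0 h, 3.42 and 5.01 CPM at 4 h, 2.97 CPM at 12 h, and 5.12 and 4.55 CPM at 36 h. Its 4 h and 36 h libraries overlapped, and it did not pass edgeR's QL test in any interval (from 4 h to 36 h, log2 fold change 0.20, adjusted p = 0.601). FOXO6 had no row under its symbol in either experiment, so it was not analysed.

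**Figure D1:**
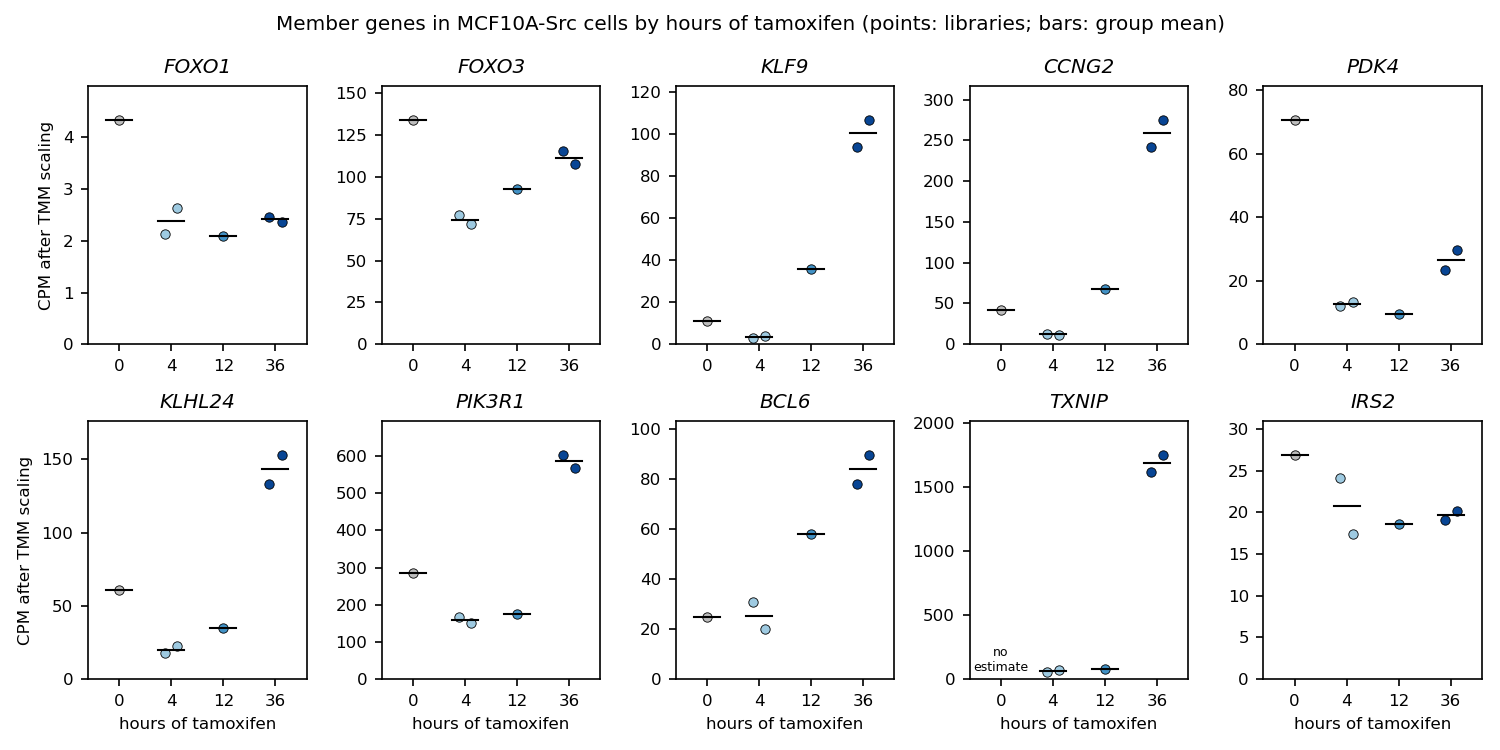
Levels of the 10 genes in the 6 MCF10A-Src libraries, 1 panel per gene, against hours of tamoxifen (CPM after TMM scaling, each axis from 0, 1 point per library, bar at the group mean). KLF9 and CCNG2 are lowest at 4 h and highest at 36 h (93.7 and 107 CPM, and 242 and 275 CPM), while PDK4 stays under its 0 h level of 70.7 CPM in all later libraries. TXNIP has no usable estimate at 0 h.

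Among the targets, KLF9, TXNIP and CCNG2 differed most between 4 h and 36 h. KLF9 (chr9:72999514-73077159, hg19), a zinc finger transcription factor that holds back proliferation in several tissues, stood at 10.9 CPM at 0 h, 3.16 and 3.69 CPM at 4 h, 35.6 CPM at 12 h, and 93.7 and 107 CPM at 36 h. The 4 h libraries lay below all others, and the 12 h library was already above 0 h. In log2 fold change this was -1.67 (SE 0.216) from 0 h to 4 h and 3.37 (SE 0.214) from 4 h to 12 h. From 4 h to 36 h it was 4.86 (SE 0.204), a 29.1-fold difference, and from 0 h to 36 h it was 3.20 (SE 0.242).

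CCNG2 (chr4:78078356-78091210, hg19) encodes cyclin G2, an unconventional cyclin linked to cell cycle arrest. Its level was 42.5 CPM at 0 h, 12.7 and 11.8 CPM at 4 h, 67.8 CPM at 12 h, and 242 and 275 CPM at 36 h. It followed the same course as KLF9, low at 4 h, above 0 h at 12 h and highest at 36 h, with no overlap between the times. On the log2 scale the difference was -1.80 (SE 0.186) from 0 h to 4 h, 2.47 (SE 0.186) from 4 h to 12 h and 4.40 (SE 0.179) from 4 h to 36 h, the last a 21.1-fold difference.

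KLHL24 (chr3:183351948-183402302, hg19) encodes a substrate adaptor of a cullin ubiquitin ligase that acts on keratin filaments. Its level was 60.5 CPM at 0 h, 18.1 and 22.3 CPM at 4 h, 34.6 CPM at 12 h, and 133 and 153 CPM at 36 h. At 12 h it was thus above 4 h yet still under 0 h, unlike KLF9 and CCNG2. The log2 fold change was -1.58 (SE 0.206) from 0 h to 4 h, 2.82 (SE 0.186) from 4 h to 36 h and 1.24 (SE 0.223) from 0 h to 36 h.

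PIK3R1 (chr5:67511603-67597647, hg19) encodes p85, the regulatory subunit of PI3K itself. It stood at 284 CPM at 0 h, 166 and 151 CPM at 4 h, 176 CPM at 12 h, and 604 and 568 CPM at 36 h. The 4 h and 12 h libraries were close together and below 0 h, and both 36 h libraries were above all others. In log2 fold change this was -0.845 (SE 0.178) from 0 h to 4 h, 0.153 (SE 0.182) from 4 h to 12 h and 1.89 (SE 0.154) from 4 h to 36 h.

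TXNIP encodes a thioredoxin-binding protein that limits glucose uptake. Its row (chr1:144146806-146467638, hg19) spans a merged bundle much longer than the gene, and at 0 h the deposited status marks a failed estimate, so no 0 h level is given. The rows of the other genes, FOXO1 and KLF9 among them, were not compared with the extent of the gene. It stood at 52.8 and 68.2 CPM at 4 h, 76.8 CPM at 12 h, and 1618 and 1754 CPM at 36 h. Both 36 h libraries were far above the rest, and the 12 h library was just above the 4 h pair. A fit without the 0 h library, added after the data were seen, gave a log2 fold change of 0.346 (SE 0.216) from 4 h to 12 h and 4.80 (SE 0.207) from 4 h to 36 h, a 27.9-fold difference.

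BCL6 (chr3:187433506-187463475, hg19), a transcriptional repressor best known from germinal centre B cells, was the target that was not low at 4 h. It stood at 24.9 CPM at 0 h, 30.7 and 19.9 CPM at 4 h, 58.1 CPM at 12 h, and 78.1 and 89.8 CPM at 36 h. The 0 h level lay between the 4 h libraries, while 12 h and 36 h lay above both. On the log2 scale the difference was 0.0223 (SE 0.272) from 0 h to 4 h, 1.20 (SE 0.263) from 4 h to 12 h and 1.73 (SE 0.228) from 4 h to 36 h. The call at 12 h was lost with library totals (1.25) and with limma (1.10).

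PDK4 (chr7:95212814-95225925, hg19) encodes a kinase that shuts pyruvate dehydrogenase and so spares glucose. Its level was 70.7 CPM at 0 h, 12.2 and 13.2 CPM at 4 h, 9.54 CPM at 12 h, and 23.5 and 29.8 CPM at 36 h. The 36 h libraries were above 4 h and 12 h but remained below 0 h, which sets PDK4 apart in direction from KLF9, CCNG2, KLHL24, PIK3R1 and BCL6 over the whole course. The log2 fold change was -2.47 (SE 0.22) from 0 h to 4 h, a 5.56-fold lower level, then 1.06 (SE 0.194) from 4 h to 36 h and -1.41 (SE 0.219) from 0 h to 36 h.

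IRS2 (chr13:110406185-110459411, hg19), the adaptor that links insulin and IGF receptors to PI3K, moved least. It stood at 26.9 CPM at 0 h, 24.2 and 17.4 CPM at 4 h, 18.6 CPM at 12 h, and 19.1 and 20.2 CPM at 36 h. Its 4 h pair spanned all the later libraries. In log2 fold change this was -0.376 (SE 0.248) from 0 h to 4 h and -0.0812 (SE 0.212) from 4 h to 36 h.

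Counted together, 8 of the 10 genes entered the main time-course fit. Over the first 4 h, 6 of these 8 were called lower (edgeR's QL test, adjusted p under 0.05), with 3.09% of all 15572 genes called lower. The 6 were FOXO3, KLF9, CCNG2, PDK4, KLHL24 and PIK3R1, and their number rests on a single 0 h library. With limma 2 were called at a pseudocount of 1 (CCNG2 and PDK4) and 0 at 0.1. The median log2 fold change of the 8 was -1.22, against 0.0061 over all genes. Between 4 h and 12 h, KLF9, CCNG2 and BCL6 were called higher, with 2.96% of all genes called higher and a median of 0.548 for the 8 against -0.0161 over all genes. Between 4 h and 36 h, 7 of the 8 were called higher, all but IRS2, with 18.8% of all genes called higher and a median of 1.81 for the 8 against -0.0385 over all genes. Both 36 h libraries were above both 4 h libraries for 8 of the 10 genes, FOXO1 and IRS2 excepted, as they were for 33.8% of all genes tested (below for 37.3%). Over the whole course, from 0 h to 36 h, KLF9, CCNG2, KLHL24, PIK3R1 and BCL6 were called higher (9.99% of all genes) and PDK4 lower (9.36%). Since the genes were chosen with these contrasts known, nothing is read from the counts. These intervals share libraries, so they are not independent of each other.

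**Figure D2:**
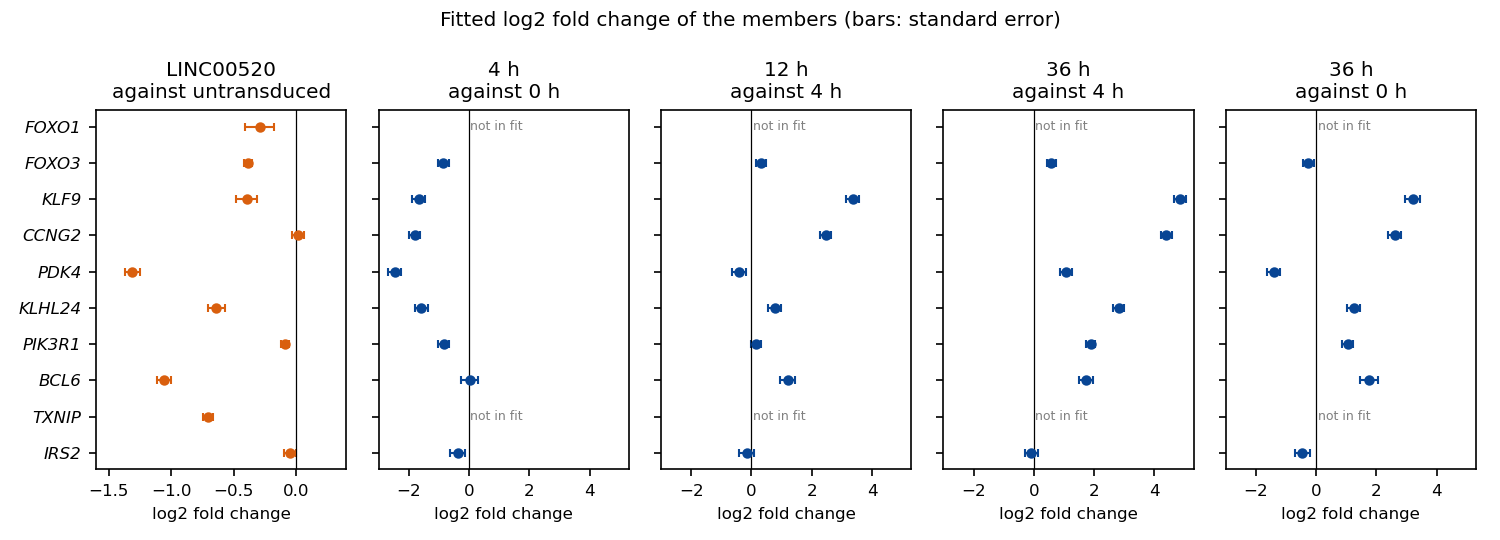
Log2 fold changes of the 10 genes in the 5 comparisons with error bars of 1 SE (edgeR QL fit). FOXO1 and TXNIP were not in the time-course fit, and the parental panel has its own narrower axis. From 4 h to 36 h KLF9 (4.86) and CCNG2 (4.40) lie farthest to the higher side, and with LINC00520 PDK4 (-1.31) and BCL6 (-1.06) lie farthest to the lower side.

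The parental cells show how the same genes stood 72 h after transduction with LINC00520, where replicates agreed far more closely than in the time course (biological coefficient of variation 0.0249 against 0.162). PDK4 stood at 46.4, 47.8 and 49.5 CPM in the untransduced libraries and at 20.5 and 17.9 CPM with LINC00520. BCL6 was the other gene with a gap this wide, at 51.5, 48.6 and 49.3 CPM against 24.9 and 22.8 CPM. Neither gene's groups overlapped, and the log2 fold changes were -1.31 (SE 0.061) for PDK4, a 2.48-fold lower level, and -1.06 (SE 0.056) for BCL6.

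TXNIP, the thioredoxin-binding glucose regulator, stood at 703, 810 and 740 CPM against 451 and 470 CPM with LINC00520, a log2 fold change of -0.705 (SE 0.0405). KLHL24, the ubiquitin ligase adaptor, stood at 24.7, 28.1 and 25.6 CPM against 17.0 and 16.5 CPM (-0.64, SE 0.0669). In both cases every LINC00520 library lay below every untransduced library. KLF9 stood at 27.1, 21.4 and 23.2 CPM against 19.4 and 17.0 CPM (-0.397, SE 0.083), and FOXO3 at 115, 118 and 114 CPM against 90.1 and 86.8 CPM (-0.386, SE 0.035). The gap was wide beside the replicate spread for FOXO3 and narrow for KLF9, whose untransduced libraries differed more. FOXO1 stood at 7.14, 7.76 and 5.95 CPM against 5.89 and 5.57 CPM, a log2 fold change of -0.293 (SE 0.116). Its highest LINC00520 library was just under its lowest untransduced one. Its call was lost with DESeq2, with limma, with the filter on counts and when any library but untransduced replicate 3 was left out. PIK3R1 stood at 190, 186 and 187 CPM against 177 and 176 CPM (-0.0901, SE 0.0299), a small difference whose call was lost with limma and without either LINC00520 library.

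CCNG2 and IRS2 were the genes whose groups overlapped. CCNG2 stood at 47.2, 47.5 and 46.3 CPM against 48.7 and 46.0 CPM, a log2 fold change of 0.0111 (SE 0.0469). IRS2 stood at 44.8, 43.2 and 43.5 CPM against 44.2 and 40.5 CPM (-0.0505, SE 0.0505). CCNG2, which was 21.1-fold higher at 36 h than at 4 h of tamoxifen, thus stood level between the parental groups, while PDK4, the lowest relative to 0 h late in the time course, had the largest difference there. In all, 8 of the 10 genes were called lower (24.8% of 12790 genes called lower), and the libraries of the same 8 did not overlap (33.3% of all genes lower). With limma 6 were called at a pseudocount of 1 and 5 at 0.1, where KLF9 was lost as well as FOXO1 and PIK3R1. The median log2 fold change of the 10 was -0.392, against 0.00084 over all genes, and again the choice of genes used this contrast.

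**Figure D3:**
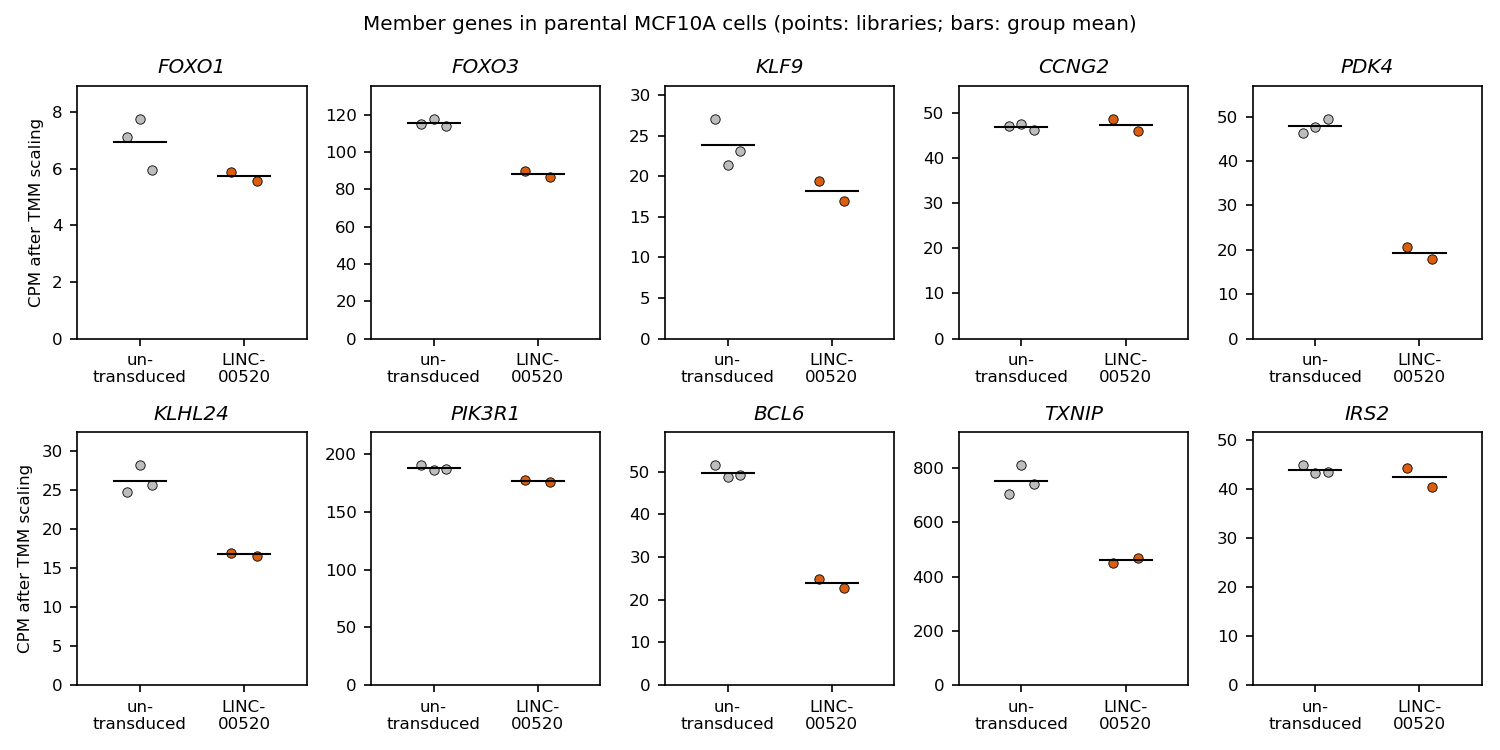
Levels of the 10 genes in the 5 parental MCF10A libraries, 1 panel per gene (CPM after TMM scaling, axis from 0, 1 point per library, bar at the group mean). PDK4 and BCL6 are lower in both LINC00520 libraries (20.5 and 17.9 CPM, and 24.9 and 22.8 CPM), while the points of CCNG2 and IRS2 overlap between groups.

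FOXO4, which activates many of the same promoters as FOXO1 and FOXO3, stood at 10.7, 9.95 and 9.83 CPM in untransduced libraries and at 6.59 and 6.02 CPM with LINC00520. It fell, with a log2 fold change of -0.694 (SE 0.096, edgeR QL test, adjusted p = 1.88e-06), and its libraries did not overlap. FOXO1, FOXO3 and FOXO4 were thus all lower in the LINC00520 libraries, though the FOXO1 call was lost under several settings. Of all genes, 24.8% were called lower there, and for 33.3% the LINC00520 libraries lay lower without overlap.

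Other genes of the pathway were taken from lists outside the 10 genes. All of these lists, here and in the paragraphs below, were also chosen with earlier results of these data known. Their counts and p-values are therefore a description and not independent support. Of 35 further FOXO targets, 33 had a row and 26 were tested. With LINC00520, 18 of the 26 fell (24.8% of all genes called lower) and 0 rose, by edgeR's QL test, and 0 rose at an unadjusted p under 0.05, with DESeq2 or with limma. Their median log2 fold change was -0.24, against 0.00084 over all genes. SOD2, the mitochondrial superoxide dismutase, stood at 361, 382 and 391 CPM against 195 and 188 CPM and fell by 0.979 on the log2 scale (SE 0.0345, adjusted p = 7.62e-17). CITED2, a transcriptional coregulator, fell by 0.69 (SE 0.0727, adjusted p = 2.81e-08), and TRIB1, a pseudokinase, fell by 0.571 (SE 0.0609, adjusted p = 3.49e-08). BBC3, which encodes the apoptosis activator PUMA, fell from a mean of 8.39 to 4.40 CPM, by 0.937 (SE 0.108, adjusted p = 1.15e-07).

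In the time course the further targets did not move as one group. From 0 h to 4 h, 2 rose (3.15% of all genes) and 3 fell (3.09%), with a median of -0.162 against 0.0061 over all genes. GADD45B, a stress response gene, rose from 10.8 CPM to 50.5 and 45.7 CPM (2.16, SE 0.226, edgeR adjusted p = 0.00335), and SOD2 rose from 341 to a mean of 1320 CPM (1.95, SE 0.266, adjusted p = 0.00874). SESN1, a brake on mTORC1, fell from 54.2 CPM to 18.0 and 18.1 CPM (-1.59, SE 0.192, adjusted p = 0.00527), and FBXO32, the ubiquitin ligase atrogin-1, fell from 5.01 to a mean of 1.60 CPM (-1.64, SE 0.336, adjusted p = 0.0315). Leaving out 4 h replicate 2 gave 5 higher and 5 lower, and limma gave 1 and 1. Between 4 h and 12 h, 0 of 26 passed edgeR's QL test in either direction (2.96% of all genes higher, 1.64% lower). At an unadjusted p under 0.05 there were 4 higher and 4 lower. DESeq2 called 1 higher and 1 lower and limma called 0. Without 4 h replicate 1 edgeR called 2 higher and 1 lower, and without 4 h replicate 2 it called 2 and 3.

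Over the later interval, from 4 h to 36 h, 18 of the 26 rose (18.8% of all genes) and 3 fell (20.5%), with a median log2 fold change of 0.723 against -0.0385 over all genes. RICTOR, a core subunit of mTORC2, rose from 86.1 and 109 CPM to 302 and 321 CPM (1.67, SE 0.172, edgeR adjusted p = 3.39e-04), and SOD2 rose by a further 1.80 (SE 0.203, adjusted p = 4.91e-04) to 4382 and 4802 CPM. GADD45B fell from its 4 h peak to 19.7 and 18.5 CPM (-1.33, SE 0.172, adjusted p = 9.49e-04). IRS1, the close relative of IRS2, fell from 19.4 and 14.3 CPM to 4.49 and 5.41 CPM (-1.78, SE 0.242, adjusted p = 0.00121). The number called rested on the 36 h pair: without either 36 h library it was 10 higher and 2 lower. With library totals in place of TMM scaling it was 10 and 4, a setting in which the median of all genes moved to -0.294. From 0 h to 36 h, 9 rose (9.99%) and 4 fell (9.36%), with a median of 0.444 against -0.0774. SOD2 (3.75, SE 0.296, adjusted p = 1.55e-04) and TRIB1 (1.56, SE 0.198, adjusted p = 0.00158) were the clearest rises, and IRS1 (-2.19, SE 0.271, adjusted p = 0.0014) and SESN1 (-1.18, SE 0.194, adjusted p = 0.00538) the clearest falls. With library totals the split was 3 higher and 4 lower. Without 36 h replicate 1 it was 4 and 2, and without 36 h replicate 2 it was 5 and 2.

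**Figure D4:**
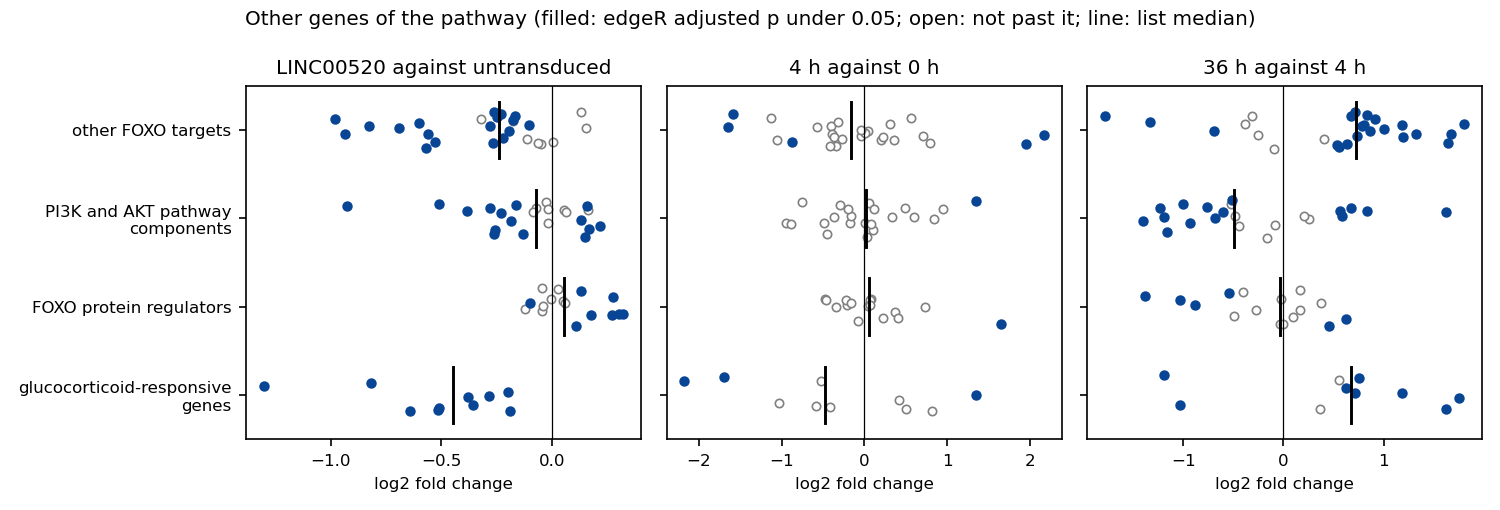
Log2 fold changes of the genes tested from the lists outside the 10, for 4 lists and 3 comparisons, 1 point per gene (edgeR QL fit, filled where adjusted p is under 0.05), with a line at each list's median and a separate axis per comparison. The medians of the further FOXO targets are -0.24 with LINC00520 and 0.723 from 4 h to 36 h.

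The PI3K and AKT pathway list held 23 tested genes in the parental cells and 22 in the time course. With LINC00520, 5 rose (25.2% of all genes) and 10 fell (24.8%), with a median of -0.0724 against 0.00084 over all genes. SGK1, an AKT-related kinase that also phosphorylates FOXO3, fell from 108, 118 and 109 CPM to 80.6 and 76.1 CPM (-0.511, SE 0.0411, edgeR adjusted p = 2.86e-10). INPP5D, a lipid phosphatase gene, also fell (-0.257, SE 0.0315, adjusted p = 3.03e-07), to 0.837 of the control level, while MTOR rose (0.216, SE 0.0315, adjusted p = 4.12e-06). Without LINC00520 replicate 2 there were 2 higher and 9 lower. From 0 h to 4 h SGK1 alone passed edgeR's QL test, rising from 22.5 CPM to 54.0 and 60.0 CPM (1.34, SE 0.208, adjusted p = 0.0132). Of all genes, 3.15% were called higher and 3.09% lower. At an unadjusted p under 0.05 the list had 5 higher and 4 lower, and DESeq2 called 3 higher and limma 0. Without 4 h replicate 1 edgeR called 4 higher and 4 lower, and without 4 h replicate 2 it called 4 higher. In the next interval, from 4 h to 12 h, 0 of 22 passed edgeR's QL test (2.96% of all genes higher, 1.64% lower). At an unadjusted p under 0.05, 4 were lower, while DESeq2 called 1 lower and limma called 0. Some genes of the list passed when either 4 h library was left out, which leaves that time with a single library.

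From 4 h to 36 h, 5 of the 22 rose (18.8% of all genes) and 10 fell (20.5%), with a median of -0.496 against -0.0385 over all genes. The falls with the smallest p were PHLPP2, a phosphatase that dephosphorylates AKT (-1.23, SE 0.166, edgeR adjusted p = 0.00117), SGK1 (-1.19, SE 0.165, adjusted p = 0.0013), the lipid phosphatase INPP4B (-1.40, SE 0.206, adjusted p = 0.00169) and AKT2 (-0.934, SE 0.15, adjusted p = 0.00243). The genes that fell thus included AKT2, which carries the PI3K signal, and PHLPP2 and INPP4B, which oppose it, while PIK3R1 was higher. Without 36 h replicate 1 there were 3 higher and 7 lower, without 36 h replicate 2 there were 2 and 7, and with library totals there were 3 and 13. Over the whole course, from 0 h to 36 h, 4 fell (9.36% of all genes), among them INPP4B (-1.57, SE 0.237, adjusted p = 0.00374) and PIK3R3, a smaller regulatory subunit related to PIK3R1 (-1.17, SE 0.193, adjusted p = 0.00551). Library totals gave 10 lower in that interval and limma gave 1. Without 4 h replicate 1 there were 8 lower and 1 higher, and without 4 h replicate 2 there were 7 lower and 2 higher.

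Proteins that hold, export or modify FOXO formed a list of 16 genes. With LINC00520, 7 rose (25.2% of all genes) and 1 fell (24.8%), with a median of 0.0535 against 0.00084 over all genes. The 14-3-3 genes YWHAG (0.303, SE 0.0276, edgeR adjusted p = 2.43e-09), YWHAH (0.321, SE 0.0326, adjusted p = 1.50e-08) and SFN (0.274, SE 0.0348, adjusted p = 5.24e-07) rose, as did XPO1, the exportin that carries FOXO out of the nucleus (0.271, SE 0.0293, adjusted p = 4.19e-08). SFN, which encodes 14-3-3 sigma, stood at 376, 349 and 365 CPM in untransduced libraries and at 421 and 458 CPM with LINC00520. In the time course SFN stood at 192 CPM at 0 h, 603 and 592 CPM at 4 h, 348 CPM at 12 h, and 231 and 229 CPM at 36 h. It rose from 0 h to 4 h (1.64, SE 0.191, edgeR adjusted p = 0.00488). From 4 h to 36 h it fell (-1.38, SE 0.147, adjusted p = 3.99e-04). SFN was thus highest at 4 h, where KLF9 and CCNG2 were lowest, and a link between them was not tested. From 0 h to 4 h, SFN was the 1 gene of the 16 that rose (3.15% of all genes), and 0 fell (3.09%). The median of the list was 0.0551 there, against 0.0061 over all genes. Late in the course, from 4 h to 36 h, 2 of the 16 genes rose (18.8% of all genes) and 4 fell (20.5%), with a median of -0.0299 against -0.0385. MDM2, a ubiquitin ligase, was among the former (0.625, SE 0.154, adjusted p = 0.0149), and SKP2, part of another ubiquitin ligase, among the latter (-0.88, SE 0.204, adjusted p = 0.0116). With library totals MDM2 did not pass and 6 genes of the list fell. Without 36 h replicate 1 there was 1 higher and 3 lower, and without 36 h replicate 2 there were 2 lower and MDM2 did not pass. From 4 h to 12 h, 0 of the 16 passed edgeR's QL test (2.96% of all genes higher, 1.64% lower). There was 1 lower at an unadjusted p under 0.05, 1 lower with DESeq2 and 0 with limma. Here too the absence of calls did not hold when either 4 h library was left out.

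Because the medium held hydrocortisone and because PDK4 and KLF9 also answer to glucocorticoids, 10 tested glucocorticoid-responsive genes were set beside them. This list too was chosen with earlier results of these data known. With LINC00520 all 10 fell (24.8% of all genes called lower), with a median of -0.446 against 0.00084 over all genes, and they did so as well with DESeq2, with limma, under each scaling and without any single library. TSC22D3, which encodes the glucocorticoid-induced leucine zipper GILZ, stood at 187, 192 and 186 CPM against 75.5 and 78.0 CPM (-1.30, SE 0.0345, edgeR adjusted p = 7.98e-19), a difference as large as that of PDK4. ERRFI1, a feedback inhibitor of the EGF receptor, fell by 0.818 (SE 0.0344, adjusted p = 2.77e-15), and CEBPD, a transcription factor, fell by 0.642 (SE 0.055, adjusted p = 9.02e-10). Over the first 4 h, 1 of the 10 rose (3.15% of all genes) and 2 fell (3.09%), with a median of -0.472 against 0.0061 over all genes. TSC22D3 fell from 51.5 CPM to 11.7 and 11.2 CPM (-2.17, SE 0.199, edgeR adjusted p = 0.00206). ZBTB16, a zinc finger factor, fell from 100 to a mean of 31.1 CPM (-1.69, SE 0.204, adjusted p = 0.00527), and SGK1 rose. DESeq2 called 2 higher and 3 lower there, and limma called 0 higher and 1 lower. TSC22D3 then stood at 9.72 CPM at 12 h, and 33.7 and 36.8 CPM at 36 h, under its 0 h level throughout like PDK4. Between 4 h and 36 h, 6 of the 10 rose (18.8% of all genes) and 2 fell (20.5%), with a median of 0.669 against -0.0385, and without either 36 h library 4 rose and 2 fell. Against 0 h, 3 rose by 36 h (9.99% of all genes), among them DUSP1, a phosphatase of MAP kinases (1.53, SE 0.235, adjusted p = 0.00411), and with library totals 3 rose and 3 fell. Without 4 h replicate 1 there were 3 higher and 4 lower, without 4 h replicate 2 there were 3 and 3, and limma gave 1 higher. The part of glucocorticoid signalling in the levels of PDK4 and KLF9 was not tested.

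The arrestin genes ARRDC2, ARRDC3 and ARRDC4 share with TXNIP a protein fold and, for some, control by MondoA. With LINC00520, ARRDC3 fell from a mean of 75.7 to 56.2 CPM (-0.43, SE 0.0453, edgeR adjusted p = 2.86e-08) and ARRDC4 from 21.6 to 15.5 CPM (-0.473, SE 0.0683, adjusted p = 3.50e-06), while ARRDC2 did not pass (-0.148, SE 0.0672, adjusted p = 0.0704). Over the later interval, from 4 h to 36 h, where TXNIP was 27.9-fold higher, ARRDC3 was higher by 0.736 (SE 0.183, adjusted p = 0.0154), a call lost with library totals and without 36 h replicate 2. ARRDC4 (0.501, SE 0.179, adjusted p = 0.0576) and ARRDC2 (-0.31, SE 0.202, adjusted p = 0.258) did not pass, and ARRDC2 lay on the other side of 0.

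Across the 6 time-course libraries, the genes whose centred log2(CPM + 1) profile was nearest to a member's were found by the root mean square difference, as a description of libraries that share conditions. The nearest to KLF9 were GRB7, an adaptor of receptor tyrosine kinases (0.23), CCNG2 (0.304) and RHOU (0.322). The nearest to CCNG2 were KLF9 (0.304), GRB7 (0.339) and RGS17, a regulator of G protein signalling (0.44), so KLF9 and CCNG2 were near each other among all 15572 genes. The nearest to PDK4 were the lincRNA linc-DHFRL1-5 (0.307), TSC22D3 (0.314) and the lincRNA linc-SLITRK5-AS (0.316). No other of the 10 genes tested was nearer to PDK4 than FOXO3, at 0.692. FOXO1 was not in the fit, so no profile was matched to it.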

How the data were processed

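PolyA RNA-seq was deposited for 6 MCF10A-Src and 7 parental MCF10A samples. Base calling with CASAVA 1.4, TopHat alignment to hg19 and Cuffdiff are named in the submitters' processing notes; versions of the last 2, the annotation and the strand setting are not given in the sources used here. Per the file headers, the authors' tables hold an estimated count of fragments and an FPKM value, scaled by Cuffdiff, for each gene and library. The deposited calls tables with log2 fold changes, p-values and q-values were used for gene symbols only. Library rows were matched to labels by condition name: 2 control lincRNA samples matched none and were not analysed here, and 7 libraries whose names match no label were not used.

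The 10 genes and all lists were chosen with earlier results of these data known. Estimated counts were rounded (92.4% to 99.9% of values per library were whole), scaled by TMM and tested with edgeR 4.0.16 (estimateDisp, glmQLFit, glmQLFTest; R 4.3.3), with 1 coefficient per group and 1 spread per experiment, which the single 0 h and 12 h libraries borrow. Genes needed an FPKM of 1 in 2 libraries (parental, 12790 genes) or 1 library (time course, 15572 genes) and an OK status throughout (22 and 59 rows lacked it). P-values are 2-sided with Benjamini-Hochberg adjustment over all genes tested. Standard errors are the log2 fold change over the root of the QL F statistic. Nothing in the labels says that replicates were separate cultures, so the spread behind each p-value may be technical. The median chi-square between replicates was 1.41 and 1.43 times its counting-noise value in the parental groups, 9.23 times at 4 h and 3.13 times at 36 h. On simulated counts the fit recovered 100% of changes of 1 on the log2 scale in the parental comparison, 35% from 0 h to 4 h, 34% from 4 h to 12 h, 62% from 4 h to 36 h and 47% from 0 h to 36 h. Those counts used 1 dispersion per gene for all groups, estimated from these same libraries. They changed only 200 genes, all with a mean above 1 CPM and as many up as down, fewer than any real comparison called. They therefore carried neither the wider spread of the 4 h pair nor the real number of changes. The recovery rates need not hold for the real fit.

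Named genes were the 10, FOXO4 and FOXO6, up to 4 called genes with the smallest p per list and comparison (merged rows passed over), and the 3 nearest profiles of FOXO1, KLF9, CCNG2 and PDK4; DCN, CD68, HBB, the epithelial markers, ARRDC2 and ARRDC4 in the time course were named after their values were seen. Alternatives were limma 3.58.1 on log2(FPKM + 1) and log2(FPKM + 0.1), DESeq2 1.42.0, upper-quartile scaling, library totals, no filter, a minimum count of 10, each replicate left out, and the replicate number as a block. Promoter windows are RefSeq's (GRCh38); all other coordinates are hg19, from the files. Some genes of the lists are not reported here by name.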

Additional observations from a re-analysis of the deposited data

How the results depend on the processing

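Among the 10 genes no called log2 fold change reversed, while uncalled values of CCNG2, BCL6 and IRS2 changed sign under some settings, up to -0.319 for BCL6 (0 h to 4 h) and 0.172 for IRS2 (4 h to 36 h), both without 4 h replicate 1. Of 530 values under 18 settings, 465 moved by less than the replicate spread and 65 by more. Counts of genes called in the parental comparison, and of further FOXO targets there, stayed within 1.5 times under each setting run. In the time course they did not. From 0 h to 4 h the 972 called genes became 164 and 134 with limma (pseudocounts 1 and 0.1), 2794 with no filter and 1101 to 4288 with a replicate left out, and the 5 FOXO targets became 2, 1, 8 and 5 to 10. The 6 genes of the 10 called lower there became 2 and 0 with limma. From 4 h to 12 h the 716 called genes became 41 and 47 with limma, 1768 with no filter and 811 to 3128 with a replicate left out, and the 0 FOXO targets became 2 with DESeq2, 2 with no filter, 0 to 5 with a replicate left out and 1 without the 0 h library, a setting chosen after seeing the data. From 4 h to 36 h the 6130 called genes became 4005 with limma (pseudocount 0.1) and 3652 to 7360 with a replicate left out, and the 21 FOXO targets became 13 and 12 with limma and 12 to 22. From 0 h to 36 h the 3014 called genes became 1517 and 1171 with limma, 4756 with library totals, 5066 with no filter and 1923 to 6058 with a replicate left out, and the 13 FOXO targets became 7, 4, 7 with library totals and 6 to 18. The cause was not tested, except that leaving out a replicate also lowers the residual degrees of freedom.

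Library totals moved the split of called genes from 2930 higher and 3200 lower to 1861 and 4823 (4 h to 36 h), and from 1556 and 1458 to 1016 and 3740 (0 h to 36 h), with the median of all genes at -0.294 and -0.429, so fold changes are relative to the TMM reference. The tables' replicate index is not tied to the labels' numbers, and same-indexed libraries correlated at 0.11 and 0.11 (4 h with 36 h) and at -0.07 and -0.066 (parental), with 2 pairs each, so the numbers did not pair them. With the replicate block, 5500, 758, 500, 6425 and 2559 genes and 16, 4, 0, 21 and 10 FOXO targets were called in the parental, 0 h to 4 h, 4 h to 12 h, 4 h to 36 h and 0 h to 36 h comparisons, each within 1.5 times of the main count. Among the 10 genes the block lost the calls of PIK3R1 (parental), FOXO3 and PIK3R1 (0 h to 4 h) and BCL6 (4 h to 12 h), and it changed no other call of theirs. The limits are the single 0 h and 12 h libraries, the loose 4 h pair and the low counts of FOXO1.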
